A study of Mus musculus with 4 samples.

Results

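The genes described here run from glucose uptake through glycolysis to lactate and to the entry of pyruvate into mitochondria, with the hypoxia-inducible factor HIF1 and a few of its targets. The set holds 33 named genes. Members were taken as the array probe sets whose platform annotation gives 1 gene symbol in that set, and each gene was read from its probe set with the highest mean over the 4 arrays. Of the 33, 30 genes had an ordinary probe set, and each of those 30 passed the filter on dim signals, among 10501 genes tested in all. Gapdh was covered by 3 control probe sets and is described from these outside the main test. Gpi1 and Eno1 are not analysed here.

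RNA came from helper (CD4+) T lymphocytes of the mouse, taken as naive cells from the spleen and from peripheral and mesenteric lymph nodes. Each culture ran for 7 days in medium with 10% serum and concanavalin A at 2.5 ug/ml, a plant lectin that activates T cells. Human TGFb1, a cytokine that steers naive CD4+ cells towards a regulatory state, was present in every culture at 1 ng/ml. The groups were TGFb1 alone (2 arrays) and TGFb1 with the steroid hormone progesterone at 2000 ng/ml (2 arrays), so no array shows cells without TGFb1. Strain, sex and age are not given in the sources used here, and the labels do not say that the 2 samples of a group came from separate animals or cultures. The p-values therefore rest on a spread between arrays that may be only technical.

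Glycolysis splits glucose into pyruvate and yields a little ATP without oxygen. Activated T cells take up far more glucose than resting ones and turn much of the pyruvate into lactate even when oxygen is present. HIF1, whose alpha chain is encoded by Hif1a, is destroyed in oxygenated cells after hydroxylation by the prolyl hydroxylases of the Egln genes, and otherwise switches on many glycolytic genes. Pyruvate dehydrogenase kinases turn off the enzyme that feeds pyruvate to the citrate cycle, and so favour lactate.

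All differences are progesterone plus TGFb1 minus TGFb1 alone, in log2 of the quantile-normalised signal plus 16, which understates the change of dim genes. Errors are the standard error (SE) of the limma fit, n = 2 arrays per group, and adjusted p is Benjamini-Hochberg over the 10501 genes, with a threshold of 0.05. Signals are quantile-normalised and listed as TGFb1 replicates 1 and 2, then progesterone replicates 1 and 2. Signals of different probe sets cannot be set against each other.

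The arrays also differed between the groups outside this pathway. The deposited trimmed mean signal was 146 to 155 with TGFb1 alone and 108 to 139 with progesterone. Xist, the RNA of the inactive X chromosome, rose by 5.58 and the 3 tested Y-linked genes of the list (Eif2s3y, Kdm5d and Uty) fell. The sex of the cells and the treatment therefore cannot be told apart in any difference given here, those of the X-linked members Pgk1, Pdk3 and Pdha1 included. Of 12 tested proliferation genes 10 fell. The summed signal of the 13 with a probe set, the untested Tyms included, was 14690 to 21416 with TGFb1 alone and 4118 to 5606 with progesterone. The 7 tested T cell marker genes did not pass the test, and their summed signal lay between 25894 and 27940 and between 25905 and 26316. Cd4 had signals of 1961, 2289.9, 1681 and 1669.7, and Cd3e of 2769, 2958, 3177 and 3017, so the labelled cell type carried its markers. Platelet markers rose in 3 of 3 tested genes, myeloid markers in 1 of 7 (Lyz2) and mast cell and basophil markers in 2 of 5 (Kit and Ms4a2). The summed signal of the whole list, TGFb1 alone against progesterone, was 153 to 187 against 823 to 1024 for platelets, 276 to 496 against 1003 to 1175 for myeloid cells, and 875 to 1280 against 1010 to 1309 for mast cells and basophils. Lyz2 itself stood at 54.1 to 173 against 685 to 771, Kit at 101 to 116 against 226 to 275, and Ms4a2 at 42.5 to 73.0 against 120.1 to 128. Cpa3, the largest part of the mast cell and basophil sum, stood at 648 to 965 against 545 to 719. Its difference of -0.33 did not pass, and neither did those of Mcpt8 (0.13) and Gata2 (0.62). The summed signals of the other marker lists were 86.8 to 119 and 108 to 193 for B cells, 143 to 170 and 102 to 154 for CD8 T cells, and 65.5 to 70.9 and 63.0 to 64.4 for erythroid cells. The natural killer list was at 438 to 478 and 289 to 304, and its tested member Klrd1 fell. The part of these differences in the results below was not tested. In such bulk RNA, fewer cells of a type and less RNA per cell cannot be told apart.

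Of the pathway a single member passed the test. The larger gap between replicates exceeded the difference between the groups for 23 of the 30 members (76.7%), and for 56.9% of all genes. A gap between 2 single arrays varies more than a difference of group means, so this count does not compare the 2 spreads. Aldoc, the aldolase C gene, fell by 1.05 ± 0.25 (adjusted p = 0.044), a 2.07-fold lower signal. That is 1 of 30 members, where 8.16% of the 10501 genes changed in either direction, 5.17% fell and 2.99% rose. The share of members was thus not above the background in this fit. That share was above the background when the replicate number was taken as a block, a pairing the labels do not state. The next largest differences were those of Pgk1, the phosphoglycerate kinase gene, at -0.88 ± 0.32 (adjusted p = 0.149), the lactate exporter gene Slc16a3 at -0.65 ± 0.23 (adjusted p = 0.144) and the HIF target Ankrd37 at -0.64 ± 0.40 (adjusted p = 0.384). In all 23 members were at values below 0 and 7 above, with a median of -0.20, against 0.02 over all genes tested. An unadjusted p under 0.05 was found for 3 members (10% of them) and for 24.0% of all genes. The groups did not overlap for 11 members, against 55.8% of all genes, 9 at lower and 2 at higher values, against 26.0% and 29.8%. With a difference of 0.5 or more in size as well there were 3 such members, Aldoc, Pgk1 and Slc16a3, against 14.7% of all genes.

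**Figure D1:**
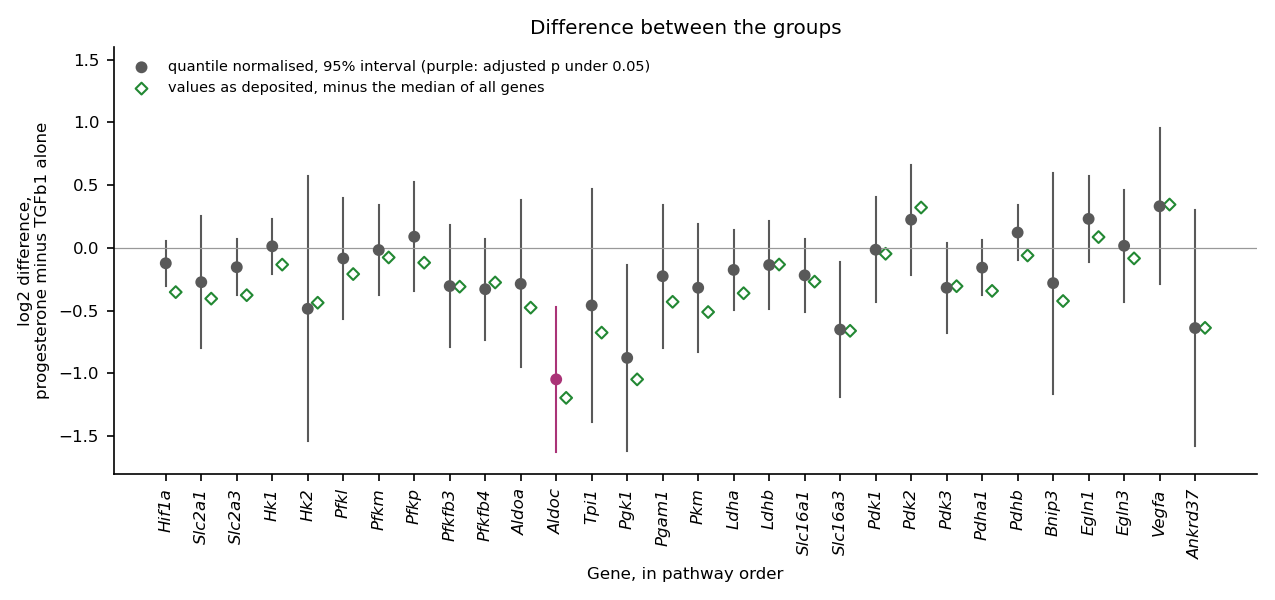
Log2 difference (progesterone plus TGFb1 minus TGFb1 alone) of the 30 tested members in pathway order, as the limma estimate with its 95% interval (n = 2 arrays per group), with open diamonds for the values as deposited after subtracting the median of all genes. Aldoc, in purple, is the member that passed; the intervals of Pgk1 and Slc16a3 also lie below 0, and the other 27 include 0.

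The direction of small differences depended on how the arrays were scaled. With the values as deposited the median of all genes was -0.22 and that of the members -0.54, and relative to the all-gene median 27 of 30 members lay lower. With the arrays brought to a common trimmed mean the medians were 0.05 and -0.26. As deposited, 5 members fell (Aldoc, Tpi1, Pgk1, Slc16a3 and Ankrd37), where 7.57% of all genes fell. Relative to the all-gene median these 5 stood at -1.20, -0.68, -1.05, -0.66 and -0.64. Hk1, Pfkp, Pdhb, Egln1 and Egln3, which lay above 0 after quantile normalisation, lay below 0 as deposited, and Hk1, Pfkp and Egln3 also with a common trimmed mean. Apart from these, only Pdk1 changed sign under either scaling, to 0.01 with a common trimmed mean.

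The windows before the start sites of Aldoc and of the 3 members with the next largest differences among those whose groups did not overlap are shown to let the core letters of the hypoxia response element be seen. That core was searched as ACGTG or GCGTG on both strands, so that CACGT and CACGC mark the reverse strand, and it is in capitals. Sequences are the 250 bases before a RefSeq start site (GRCm38.p6), on the strand of the gene, and Aldoc has 2 such starts.
Aldoc, start 1, chr11:78322823-78323072, plus strand: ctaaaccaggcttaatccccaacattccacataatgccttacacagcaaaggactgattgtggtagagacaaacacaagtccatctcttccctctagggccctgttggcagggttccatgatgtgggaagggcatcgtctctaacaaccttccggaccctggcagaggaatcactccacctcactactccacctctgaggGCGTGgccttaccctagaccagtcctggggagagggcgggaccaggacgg
Aldoc, start 2, chr11:78323948-78324197, plus strand: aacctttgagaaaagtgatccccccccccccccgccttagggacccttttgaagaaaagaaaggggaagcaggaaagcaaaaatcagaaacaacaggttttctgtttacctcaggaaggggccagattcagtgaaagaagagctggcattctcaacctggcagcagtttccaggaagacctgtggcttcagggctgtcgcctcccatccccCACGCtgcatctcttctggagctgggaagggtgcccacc
Pgk1, chrX:106186850-106187099, plus strand: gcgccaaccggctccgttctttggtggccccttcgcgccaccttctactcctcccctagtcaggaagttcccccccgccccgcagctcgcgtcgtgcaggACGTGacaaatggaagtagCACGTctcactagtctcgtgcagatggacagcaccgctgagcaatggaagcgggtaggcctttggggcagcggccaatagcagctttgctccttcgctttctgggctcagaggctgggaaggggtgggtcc
Slc16a3, chr11:120948817-120949066, plus strand: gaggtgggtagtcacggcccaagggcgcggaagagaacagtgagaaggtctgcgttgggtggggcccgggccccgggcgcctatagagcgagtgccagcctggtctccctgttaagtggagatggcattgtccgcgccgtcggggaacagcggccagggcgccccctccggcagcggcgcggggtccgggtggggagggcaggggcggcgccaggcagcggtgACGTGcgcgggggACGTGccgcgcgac
Pfkfb4, chr9:108991652-108991901, plus strand: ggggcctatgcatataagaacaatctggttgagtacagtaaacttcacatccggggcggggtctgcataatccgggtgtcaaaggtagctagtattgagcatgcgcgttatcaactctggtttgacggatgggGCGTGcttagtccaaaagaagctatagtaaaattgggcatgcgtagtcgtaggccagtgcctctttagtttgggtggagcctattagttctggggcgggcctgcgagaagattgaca

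Each Aldoc window holds 1 core, as GCGTG, whose first base lies 50 and 39 bases before the start. The Pgk1 window holds 2, both ACGTG or its reverse, at 150 and 131 bases, and that of Slc16a3 holds 2 at 27 and 14 bases. Pfkfb4 has 1, at 117 bases. Windows were found for 32 of the 33 members, 47 windows in all, and 38 of these (80.9%) hold the core. The same letters stand in 56.6% of the 10979 windows of tested genes and in 38.6% of all 32851 windows. The overlapping palindrome CACGTG, an E-box that other factors also bind, stands in 7 member windows (14.9%) and in 8.55% of the windows of tested genes. The Ldha and Bnip3 windows with the most copies hold 5 each. Each CACGTG counts as 2 of these copies, 1 per strand, and the Ldha window holds 2 such palindromes and the Bnip3 window 1. At least 1 window held the core for 30 of the 32 members (93.8%), against 41.5% of all 27025 genes with a window, tested or not. That share was not counted for tested genes alone, whose windows hold the core more often than all windows, so these 2 shares are not of like sets. A gene with several starts adds several windows to the shares of windows, and has more chances to hold the core in the shares of genes. These are matches of letters in a window, not measured sites.

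HIF1 itself was measured by 4 probe sets. Hif1a had signals of 3042, 3292, 2903 and 2907. Both progesterone arrays lay below both TGFb1 arrays, by a small margin. The difference was -0.12 ± 0.08 (adjusted p = 0.385), with a 95% interval from -0.30 to 0.06, so a halving or doubling of this probe set is outside the interval. The other 3 Hif1a probe sets were at -0.12, -0.29 and -0.78, and none of the 4 passed when each probe set was tested on its own. Protein level, the main control point of HIF1, was not measured.

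Glucose enters T cells through the transporters GLUT1 and GLUT3. The GLUT1 gene Slc2a1 had signals of 868, 556, 677 and 484. The groups overlapped, and within each group replicate 1 was the higher. The difference was -0.27 ± 0.23 (adjusted p = 0.504). Slc2a3, the GLUT3 gene, stood at 3241, 2783, 2805 and 2593. Here too the groups overlapped, by a single pair of arrays, and the difference was -0.15 ± 0.10 (adjusted p = 0.381). The 7 probe sets of these 2 genes lay between -0.38 and -0.15.

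Hexokinase traps glucose as glucose 6-phosphate. The inducible hexokinase gene Hk2 had signals of 271, 96.6, 163 and 76.1. The groups overlapped, since the lower TGFb1 array lay below the higher progesterone array, and both gaps between replicates exceeded the difference between the group means. Its difference was -0.49 ± 0.45 (adjusted p = 0.554), with a 95% interval from -1.54 to 0.57. The constitutive form Hk1 stood at 832, 847, 847 and 846, a difference of 0.01 ± 0.09 (adjusted p = 0.956).

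Phosphofructokinase makes the committed step of glycolysis. Its platelet-type subunit gene Pfkp had signals of 1832, 1258, 1828 and 1427. The groups overlapped and the difference was 0.09 ± 0.19 (adjusted p = 0.817). The liver-type gene Pfkl was at -0.08 and the muscle-type gene Pfkm at -0.02. PFKFB enzymes make and remove fructose 2,6-bisphosphate, the activator of phosphofructokinase. Pfkfb3, the form with mainly kinase activity, stood at 252, 169, 183 and 147, at -0.30 ± 0.21 (adjusted p = 0.418), with overlapping groups. Pfkfb4 had signals of 127, 162, 114 and 108, without overlap, and was at -0.33 ± 0.17 (adjusted p = 0.29).

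Aldolase splits fructose 1,6-bisphosphate into 2 triose phosphates. Aldoc had signals of 1339.6, 1064, 763 and 424, and deposited signals of 1588, 1157, 752 and 329. Both progesterone arrays were below both TGFb1 arrays, and progesterone replicate 2 was much the lowest. The 95% interval of the difference ran from -1.63 to -0.47. A second Aldoc probe set stood at -1.42 ± 0.20 (adjusted p = 0.00656), so both probe sets of the gene passed when each was tested on its own, where 6.38% of 19301 probe sets did and 4.01% fell. The call of the gene was lost without TGFb1 replicate 1 (-0.88, adjusted p = 0.0983) and without progesterone replicate 2 (-0.64, adjusted p = 0.175). It was also lost with 4 other settings of the fit, and its adjusted p over 17 alternatives ran from 3.2e-06 to 0.175, with the sign the same in each.

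Aldoa encodes the aldolase form most widespread in tissues, and it had signals of 6108, 4048, 5566 and 2979. TGFb1 replicate 1 and progesterone replicate 1 were the highest, and the groups overlapped. The difference was -0.29 ± 0.29 (adjusted p = 0.58). Of its 5 probe sets 4 lay between -0.42 and -0.29, and the dimmest stood at 0.60 ± 0.14 (adjusted p = 0.0392) and rose when tested on its own. All 5 are of the _x_at type, whose probes can match other transcripts, so Aldoa has no value in the setting without such probe sets. Within each array the log2 ratio of Aldoc to Aldoa was -2.18 and -1.91 with TGFb1 alone and -2.84 and -2.77 with progesterone. The ratios did not overlap and differed by -0.76. With 4 arrays the exact permutation test cannot go below 0.33, which is the p of this pair (two-sided, 0.762 after adjustment over the 8 pairs compared).

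The triose phosphate steps yield the first ATP of the pathway. Tpi1, which encodes triose phosphate isomerase, had signals of 3031, 1688, 2544 and 1057. Replicate 1 was far above replicate 2 in both groups, and the difference of -0.46 ± 0.40 (adjusted p = 0.524) was smaller than either gap. Pgk1, on the X chromosome, stood at 6761, 4544, 4348 and 2084. Its groups did not overlap, but the nearest arrays of the 2 groups were close. The 95% interval of its difference ran from -1.62 to -0.14, its 3 probe sets lay between -1.15 and -0.77, and without progesterone replicate 1 it passed as a fall (-1.40, adjusted p = 0.0205), where 3.67% of all genes were called. Its difference shrank to -0.59 (adjusted p = 0.349) when TGFb1 replicate 1 was left out and to -0.35 (adjusted p = 0.555) when progesterone replicate 2 was. Gapdh, read from its control probe sets, had signals of 11818, 9534, 10190.1 and 7878 in the brightest. The groups overlapped, the 3 control probe sets stood between -0.25 and -0.24, and with controls kept in the fit the brightest was at -0.24 ± 0.14 (adjusted p = 0.325).

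In the lower steps, Pkm, the gene of muscle-type pyruvate kinase, had signals of 4023, 2843, 3365 and 2181. The groups overlapped and the difference was -0.32 ± 0.22 (adjusted p = 0.422). Pgam1, which encodes phosphoglycerate mutase, was at -0.23 ± 0.24. Across glucose uptake and the glycolytic enzymes 11 of 13 tested members were at values below 0, with a median of -0.27, and 1 of 13 passed, against 8.16% of all genes.

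Lactate dehydrogenase turns pyruvate into lactate. Ldha, its A chain gene, had signals of 5732, 4336, 4770.3 and 4078. The groups overlapped and the difference was -0.18 ± 0.14 (adjusted p = 0.474), with a 95% interval from -0.49 to 0.14. Without TGFb1 replicate 2 it passed as a fall (-0.38, adjusted p = 0.0432), where 11.0% of all genes were called, and without TGFb1 replicate 1 it was at 0.02. Ldhb, the B chain gene, stood at 173, 207, 171 and 169.7, without overlap, and was at -0.14 ± 0.15 (adjusted p = 0.62). Its 4 probe sets lay between -0.55 and -0.14, and none passed.

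Lactate leaves the cell through monocarboxylate transporters. The MCT4 gene Slc16a3 had signals of 283, 237, 207 and 122. Both progesterone arrays lay below both TGFb1 arrays, and progesterone replicate 2 was the lowest of the 4. The 95% interval ran from -1.19 to -0.11, and the gene passed as a fall with the values as deposited (-0.88, adjusted p = 0.00806), where 7.57% of all genes fell. Without progesterone replicate 2 it was at -0.30 (adjusted p = 0.583). Slc16a1, the MCT1 gene, stood at 275, 278, 240.4 and 230.0, also without overlap, and was at -0.22 ± 0.13 (adjusted p = 0.335). All 4 tested genes of the lactate step were at values below 0, none passed, and 3 of the 4 had groups without overlap, against 55.8% of all genes.

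The pyruvate dehydrogenase kinases did not share a direction. Pdk1, a HIF target, had signals of 213, 264, 272 and 203. The progesterone arrays spanned the TGFb1 arrays, and the difference was -0.02 ± 0.18 (adjusted p = 0.972). The 3 other Pdk1 probe sets were at -0.57, -0.52 and -0.19. Pdk2 stood at 75.5, 101, 106 and 104, without overlap, at 0.22 ± 0.19 (adjusted p = 0.51). Pdk3, an X-linked kinase gene, stood at 181, 179, 129 and 155, without overlap, at -0.32 ± 0.15 (adjusted p = 0.254). The genes of the enzyme itself were at -0.16 for the X-linked alpha subunit gene Pdha1 and 0.12 for the beta subunit gene Pdhb, each with groups that did not overlap and neither past the test.

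Read from their brightest probe sets, the HIF targets outside metabolism were likewise spread around 0. With all probe sets of a gene averaged, Egln1, Egln3 and Vegfa, above 0 here, lay below 0, Egln3 only just. Bnip3, which marks mitochondria for removal, had signals of 1157, 531, 880.2 and 469. The groups overlapped, and replicate 1 was about as far above replicate 2 in the one group as in the other. The difference was -0.28 ± 0.38 (adjusted p = 0.694). Ankrd37, a small ankyrin repeat gene, stood at 349.6, 149, 199.98 and 98.8, with overlap and the same order of replicates. It passed as a fall without TGFb1 replicate 2 (-1.22, adjusted p = 0.0489), where 11.0% of all genes were called. It was at -0.063 (adjusted p = 0.941) without TGFb1 replicate 1 and at -0.18 (adjusted p = 0.893) without progesterone replicate 2. Vegfa, the vascular growth factor gene, stood at 173, 125, 253 and 141, with overlap, at 0.33 ± 0.27 (adjusted p = 0.492).

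The prolyl hydroxylase genes that restrain HIF1 did not pass either. Egln1 was at 0.23 ± 0.15 (adjusted p = 0.385) and Egln3, itself a HIF target, at 0.02 ± 0.19 (adjusted p = 0.972). Probe sets of a gene disagreed in sign for 8 of the 18 members with several tested, Hk1, Pfkl, Pfkp, Aldoa, Pdhb, Egln1, Egln3 and Vegfa. The widest cases beside Aldoa were Egln1, from -0.68 to 0.23, and Vegfa, from -0.44 to 0.33. No probe set of Egln1 or Vegfa passed. The lower Egln1 probe set, at -0.68 ± 0.17, was close to the threshold when tested on its own (adjusted p = 0.053). Its signals were 363, 379, 264 and 191.

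**Figure D2:**
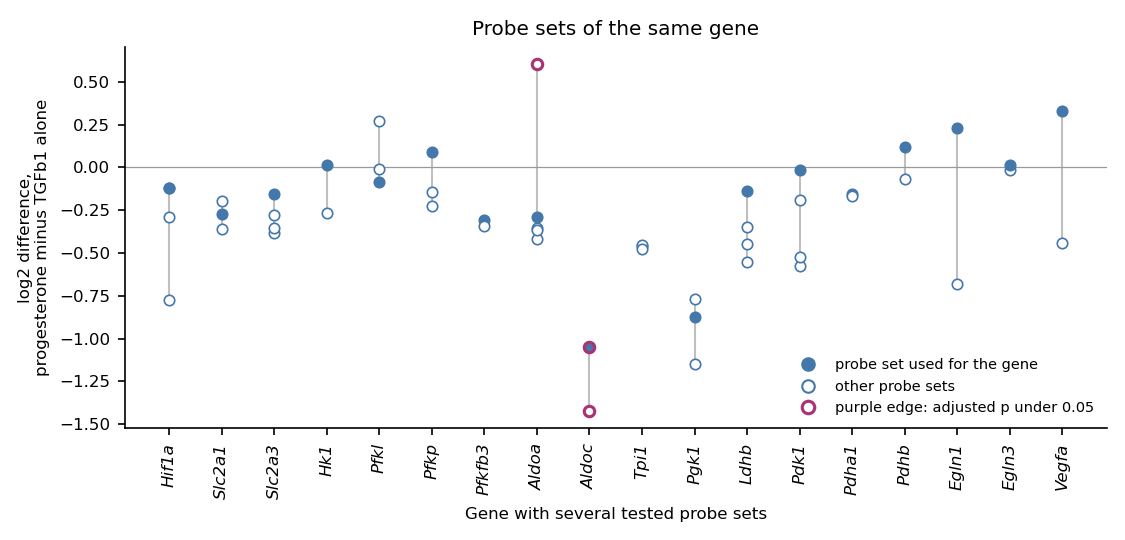
Log2 difference (progesterone plus TGFb1 minus TGFb1 alone) of each tested probe set of the 18 members with several, filled for the probe set that stands for the gene and with a purple edge where it passed in the fit over 19301 probe sets. Both Aldoc probe sets lie below -1 and passed, whereas for Aldoa 4 probe sets lie below 0 and 1 above.

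The gaps between replicates were wide for the members. For 23 of the 30 members (76.7%) the larger of the 2 gaps between replicates exceeded the difference between the group means, as it did for 56.9% of all genes tested. A gap between 2 single arrays varies more than a difference of group means. The count therefore does not compare the spread within groups with that between them. Replicate 1 was higher than replicate 2 in both groups for 19 of 30 members (63.3%), against 26.5% of all genes, and lower in both for 3 (10%), against 31.8%. The median gap of the members was 0.36 with TGFb1 alone and 0.34 with progesterone, against -0.03 and -0.00 over all genes. Across the 30 members the gaps in the 2 groups correlated at r = 0.75, and across all 10501 genes at r = 0.21, where the points of a group share the same 2 arrays and their normalisation.

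By place in the pathway, replicate 1 was higher in both groups for 12 of the 15 members of uptake and glycolysis, the Pfkfb genes included, with Hk1, Pfkm and Pfkfb4 the 3 without it. It was so for 5 of the 6 genes made up of Hif1a and the HIF targets, with Hif1a the one without it, and for 2 of the 4 genes of the lactate step. It was so for 0 of the 5 genes of pyruvate dehydrogenase and its kinases. Differences between these classes were not tested. Hk2 had the widest gap with TGFb1 alone, 1.35, and Tpi1 the widest with progesterone, 1.25. Bnip3 had gaps of 1.10 and 0.89 and Ankrd37 of 1.15 and 0.91. The labels do not say what the replicate numbers share, and the 4 arrays cannot settle it. The 12 tested proliferation genes were also higher in replicate 1 in both groups, with median gaps of 0.56 and 0.75, and their part in the pattern was not tested.

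**Figure D3:**
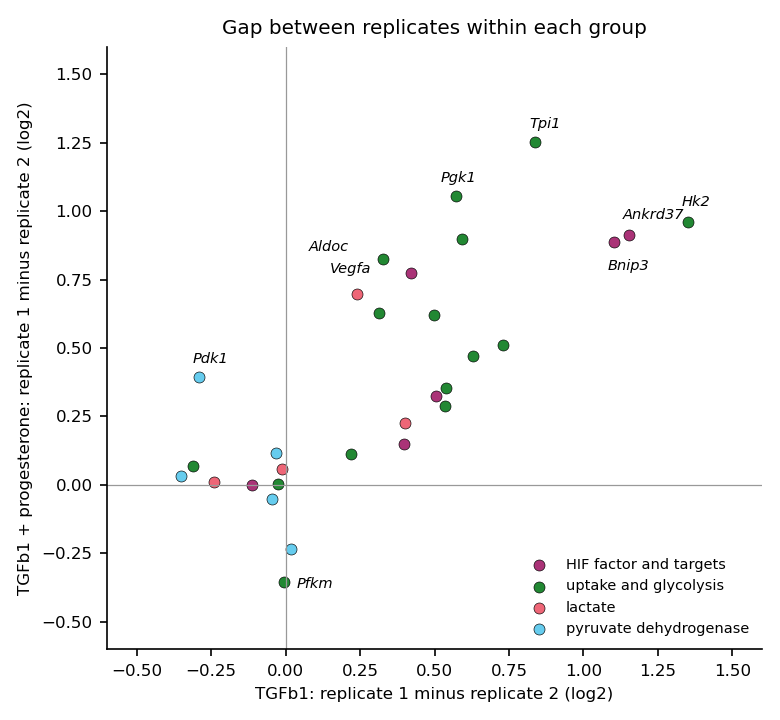
Gap between replicate 1 and replicate 2 (log2) with TGFb1 alone (x axis) and with progesterone (y axis) for the 30 tested members, coloured by place in the pathway, with the Pfkfb genes counted to uptake and glycolysis. Glycolytic genes and HIF targets lie mostly in the upper right, up to 1.35 for Hk2 on the x axis and 1.25 for Tpi1 on the y axis, and the pyruvate dehydrogenase genes lie near or across the axes.

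**Figure D4:**
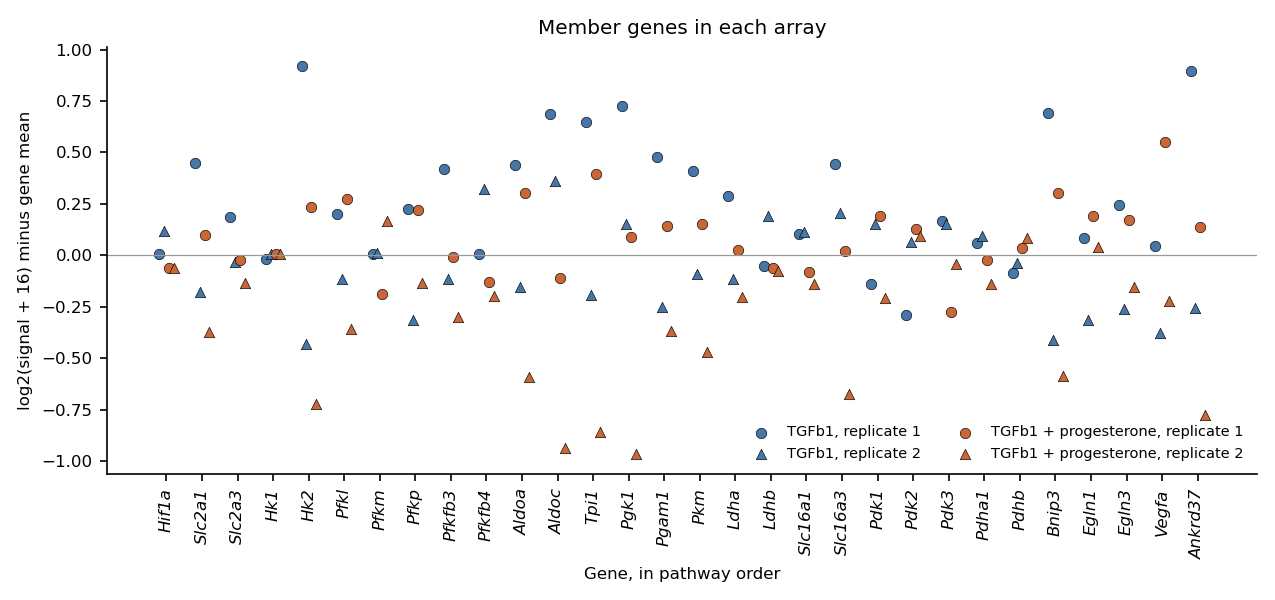
Log2(signal + 16) of the 30 tested members in each array minus the mean of the gene, in pathway order, blue for TGFb1 alone and orange for TGFb1 plus progesterone, circles for replicate 1 and triangles for replicate 2. Circles lie above triangles of the same colour for most glycolytic genes, and for Aldoc both blue points lie above both orange points.

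Of the other 7 pairs of related genes compared within arrays, the ratio of Pdk1 to Pdk2 (difference -0.24) and of Egln3 to Egln1 (-0.21) did not overlap between the groups, each with the smallest exact p of 0.33. The ratios of Slc2a3 to Slc2a1 (0.12), Hk2 to Hk1 (-0.50), Pfkp to Pfkl (0.17), Ldhb to Ldha (0.04) and Slc16a3 to Slc16a1 (-0.43) overlapped. Averaging all probe sets of each gene turned the Egln3 to Egln1 ratio to 0.23 and that of Pfkp to Pfkl to -0.15.

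Genes next to the pathway were read from lists that do not include the members. The count that passed in each list stands beside 8.16% of all 10501 genes, 5.17% as falls and 2.99% as rises. Of 13 other glycolysis genes tested 1 fell, and the median was -0.07. It was Eno3, an enolase gene best known from muscle, with signals of 3022, 3359, 1579.97 and 1446. Both progesterone arrays stood far below both TGFb1 arrays, and the difference was -1.07 ± 0.09 (adjusted p = 0.00153). Of 9 genes of pyruvate entry 1 rose, the malic enzyme gene Me2, which makes pyruvate from malate, at 0.59 ± 0.10 (adjusted p = 0.0144), with signals of 704, 637, 988 and 1047.

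Of 9 pentose phosphate genes 1 fell, the transketolase gene Tkt, at -0.55 ± 0.09 (adjusted p = 0.0119), with signals of 3776, 4023, 2847 and 2470.01. Of the 19 tested genes of the citrate cycle list 2 fell, and the median was -0.01. They were the isocitrate dehydrogenase genes Idh1, at -1.06 ± 0.23 (adjusted p = 0.0336), and Idh2, at -0.47 ± 0.11 (adjusted p = 0.0479). Both encode enzymes that use NADP, and the Idh1 enzyme lies outside mitochondria. Idh3a, Idh3b and Idh3g, which encode the NAD-dependent enzyme of the cycle, were at 0.06, 0.03 and -0.28 and did not pass. Idh1 had signals of 213, 194, 118 and 66.5, and Idh2 of 454, 469, 335 and 324. For Eno3, Me2, Tkt, Idh1 and Idh2 the groups did not overlap.

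Of 12 HIF regulators, such as Arnt, Vhl and Egln2, none passed, where 8.16% of all genes did, and their median was 0.14. Of 21 further HIF targets none passed, with a median of -0.24 and 15 at values below 0. Replicate 1 was higher in both groups for 11 of these 21 targets, with median gaps of 0.27 and 0.47, and for 4 of the 19 genes of the citrate cycle list. The 4 tested genes of glucose sensing by MondoA, Txnip among them, did not pass and had a median of 0.09.

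**Figure D5:**
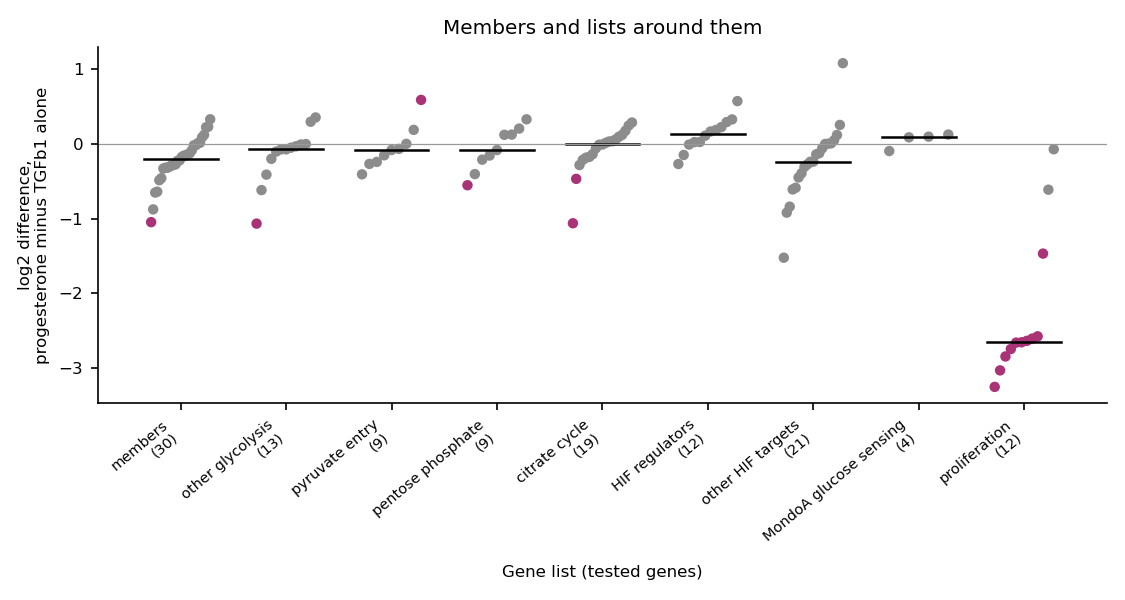
Log2 difference (progesterone plus TGFb1 minus TGFb1 alone) of each tested gene in the members and in 8 lists around them, purple where it passed, with a bar at the median and the number tested in brackets. The medians of the members and of the metabolic and HIF lists lie between -0.24 and 0.14, and that of the proliferation genes at -2.65.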

How the data were processed

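The 4 arrays held 45101 probe sets. The authors deposited linear intensity values, and the submitters' processing notes name MAS5 without a version. How the arrays were scaled is not stated in these sources. MAS5 summarises each probe set array by array, and levels of different probe sets are not comparable. No detection call was used, and the number of arrays limits the precision (2 residual degrees of freedom).

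Groups came from the sample titles. The 64 control probe sets were left out. The highest trimmed mean (2% off each end) was 1.43 times the lowest, above the 5% allowed, so quantile normalisation was applied, then log2(signal + 16). Probe sets above the median level (22518) were kept. Of the 45037 others than controls, 34945 had 1 gene, 932 several and 9160 none; symbols were updated by Entrez identifier in RefSeq GRCm38.p6 (34741 matched). Each gene was read from its brightest probe set. limma 3.58.1 in R 4.3.3 (lmFit, eBayes with an intensity trend, no covariates) was fitted over all 10501 genes, with Benjamini-Hochberg adjustment, and checked on simulated data. Adjusted p-values of genes are from that fit, and those of probe sets from the same model over 19301 probe sets.

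Each member is accounted for; those that passed, those without overlap and a difference of 0.5 or more, and the main steps are given by array. The members, lists and rule were chosen with earlier results of these data known. The fit with control probe sets and that over probe sets were added after seeing the data. Alternatives were other scalings, pseudocounts, level filters, variance models, choices of probe set, the replicate number as a block and leaving out each array.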

Additional observations from a re-analysis of the deposited data

How the results depend on the processing

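The number of members that passed was 1, and it was 5 with the values as deposited (an all-gene median of -0.22, and prior degrees of freedom without limit, so that each gene's own spread was not used), 0 with a robust variance model, without an intensity trend, without a level filter and for the top 25% of levels, and 0 to 3 without single replicates. The count of genes called, 857, was 488 with no level filter and 464 with no intensity trend, and 234 to 1155 without single replicates, the lowest without progesterone replicates 2 (234) and 1 (385). The called genes were 314 up and 543 down, and as deposited 142 up and 795 down. With the replicate number as a block 7 members (Aldoa, Aldoc, Tpi1, Pgk1, Pkm, Slc16a3 and Ankrd37) were called, all as falls. In that setting 1936 genes, 18.4% of all, were called, 911 up and 1025 down. The share of members called, 7 of 30, was thus above that of all genes there, unlike in the main fit. The replicate numbers are not known to pair the samples, and with 2 pairs the data cannot decide it. The gaps between replicates correlated at r = 0.21 across all genes and at r = 0.75 across the members. The members' median, -0.20, was -0.029 without TGFb1 replicate 1 and -0.023 without progesterone replicate 2. Each of these settings had 17 members below 0 and 13 above, in place of 23 and 7. The median was -0.25 (24 below, 6 above) without TGFb1 replicate 2 and -0.27 (25 and 5) without progesterone replicate 1. With the mean of probe sets the median was -0.28 (27 and 3), and as deposited -0.54 (28 and 2). Its sign was negative in each alternative. The cause of these moves was not tested.

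Signs of uncalled members turned as follows. As deposited, Hk1 was at -0.35, Pfkp at -0.34, Pdhb at -0.28, Egln1 at -0.13 and Egln3 at -0.30. With a common trimmed mean Hk1 was at -0.058, Pfkp at -0.040, Pdk1 at 0.012 and Egln3 at -0.015. With the mean of probe sets Hk1 was at -0.13, Pfkl at 0.060, Pfkp at -0.094, Egln1 at -0.23, Egln3 at -0.00062 and Vegfa at -0.055. With that mean the ratios of Pfkp to Pfkl and Egln3 to Egln1 also turned, to -0.15 and 0.23, and those of Aldoc to Aldoa and Pdk1 to Pdk2 kept their sign, at -1.07 and -0.55. Without single replicates Slc2a1 from -0.59 to 0.040, Hk1 from -0.00079 to 0.025, Hk2 from -1.16 to 0.19, Pfkl from -0.40 to 0.23, Pfkm from -0.20 to 0.16, Pfkp from -0.18 to 0.36, Aldoa from -0.74 to 0.16, Tpi1 from -1.09 to 0.17, Pgam1 from -0.59 to 0.14, Ldha from -0.38 to 0.025, Pdk1 from -0.21 to 0.18, Bnip3 from -0.83 to 0.27, Egln3 from -0.24 to 0.27 and Vegfa from -0.056 to 0.72 ran through 0.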
